A study of Mus musculus with 6 samples.

Results

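Retinoic acid signalling was followed through 9 genes in whole testis of Gipr knockout and wild-type mice: Stra6 for uptake of retinol, Aldh1a1 and Aldh1a2 for synthesis of retinoic acid, Rara, Rarb and Rarg for its nuclear receptors, Cyp26a1 and Cyp26b1 for its breakdown, and Stra8 as a target in germ cells. They were read by every non-control probe that carries one of these gene names on the array, 12 of 55681 probes, for 9 of 34844 gene names. A total of 7 genes had a single probe, Rara had 2 and Rarb had 3. The Gipr KO group was 3 whole testis samples from C57BL/6 mice lacking Gipr, the receptor for the gut hormone GIP, and the wild-type group was 3 samples from mice of the same strain, all 8 weeks old and with no treatment named. Neither the deleted stretch of Gipr nor the cells that lost it are given. Each sample has 1 array, and since nothing states that the samples came from separate animals, p-values measure the spread between these samples, which may be technical.

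Retinoic acid is made from vitamin A inside the testis. Retinol enters cells in part through STRA6, is oxidised to retinal and then by the ALDH1A enzymes to retinoic acid, which binds RAR and RXR receptor pairs on DNA, and CYP26 enzymes clear it. In the seminiferous tubule it drives the step from undifferentiated to differentiating spermatogonia and the entry into meiosis, for which germ cells switch on Stra8. Rarb and Cyp26a1 are textbook direct targets in many cell types, and their promoters carry a pair of receptor half-sites in direct repeat, 5 bases apart.

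Those elements can be read in the RefSeq promoter windows of build GRCm38.p6, which hold 250 bases before and 50 after each start. All 9 genes matched, with 17 windows. A direct repeat of 2 half-sites with 5 bases between was searched on both strands, where a half-site was AGGTCA, or with a changed base AGTTCA, or GGGTCA as a further form, or GGTTCA as the last. It was found in 2 of the 17 windows, 1 of Rarb and 1 of Cyp26a1, and in 0.0974% of all 32851 windows. The same repeat with 2 bases between was found in none of the 17 and in 0.268% of all windows. A single AGGTCA, which can be part of such repeats, lay in 3 of the 17 windows and in 16.3% of all windows. Those 3 were 1 each of Rara, Rarg and Stra8. The 250 bases before the start are shown for the 3 genes named above as targets, from the first window of each that holds a match there. The windows were thus picked for the match, and those of Rarb and Stra8 lie inside the annotated span of the gene. That of Cyp26a1 runs past the annotated gene start (chr19:37697738), and its repeat lies after that start. Capitals mark the repeat in Rarb (chr14:16575477-16575726, minus strand) and Cyp26a1 (chr19:37697558-37697807, plus strand), and both AGGTCA half-sites in Stra8 (chr6:34920698-34920947, plus strand).
Rarb: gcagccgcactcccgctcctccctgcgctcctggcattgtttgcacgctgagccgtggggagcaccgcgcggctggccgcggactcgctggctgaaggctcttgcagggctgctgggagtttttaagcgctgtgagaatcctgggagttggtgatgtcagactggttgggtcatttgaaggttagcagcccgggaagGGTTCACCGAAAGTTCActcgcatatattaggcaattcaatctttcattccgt
Cyp26a1: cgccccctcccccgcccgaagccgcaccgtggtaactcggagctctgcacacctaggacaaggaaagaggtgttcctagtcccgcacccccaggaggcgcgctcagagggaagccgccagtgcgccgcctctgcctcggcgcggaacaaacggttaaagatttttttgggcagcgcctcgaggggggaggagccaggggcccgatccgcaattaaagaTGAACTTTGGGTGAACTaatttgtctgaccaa
Stra8: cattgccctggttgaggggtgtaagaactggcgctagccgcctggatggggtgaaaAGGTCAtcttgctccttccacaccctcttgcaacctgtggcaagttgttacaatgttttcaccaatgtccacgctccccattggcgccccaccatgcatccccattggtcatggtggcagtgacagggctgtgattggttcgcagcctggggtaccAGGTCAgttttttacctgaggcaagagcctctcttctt
On the strand that reads as the receptor half-sites, the Rarb match is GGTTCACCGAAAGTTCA, 53 bases before the start at its first base, and the Cyp26a1 match is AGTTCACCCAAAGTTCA.  A match describes letters in the window and not binding.

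Each value below is the log2 of a probe's processed signal minus the 75th percentile of its array, so 0 is the level of a fairly bright probe. These values compare 1 probe between arrays and not different probes with each other. The targeted gene separated the labels, with a Gipr signal of 155, 145 and 176 in knockout replicates 1 to 3, against 782, 820 and 1040 in wild-type replicates 1 to 3 (limma adjusted p = 0.0031, and 0.057 without knockout replicate 2). On each array 70.6% to 76.0% of non-control spots stood well above background, with 0 saturated. The 6 arrays share 1 slide and a scan day. The knockout arrays occupy slide row 1 and the wild-type arrays row 2, so row and genotype cannot be told apart. Markers of the labelled tissue were present: 14 of 14 Sertoli, 12 of 12 spermatocyte and 6 of 6 elongating spermatid markers passed the filter on dim probes, against 3 of 6 epididymis markers.

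None of the retinoic acid genes passed the test between genotypes. Of the 12 probes, 11 met the filter on dim probes (well above background in all 3 arrays of either genotype) and were tested, and 0 of the 11 had a limma adjusted p under 0.05, against 0.0463% of all 38893 tested probes (18; 0.00514% higher and 0.0411% lower). At an unadjusted p under 0.05 stood 1 of the 11, a Rarb probe, against 7.66% of all tested probes (4.38% higher and 3.28% lower). The largest differences were those of Rarb, Aldh1a1, Rara and Cyp26b1, and the differences for Stra8, Cyp26a1, Rarg, Aldh1a2 and Stra6 lay between -0.02 and 0.05. The median absolute difference was 0.0542 over the 11 probes and 0.0877 over all tested probes, and 5 of the 11 were lower in the knockout, against 47.4% of all.

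**Figure D1:**
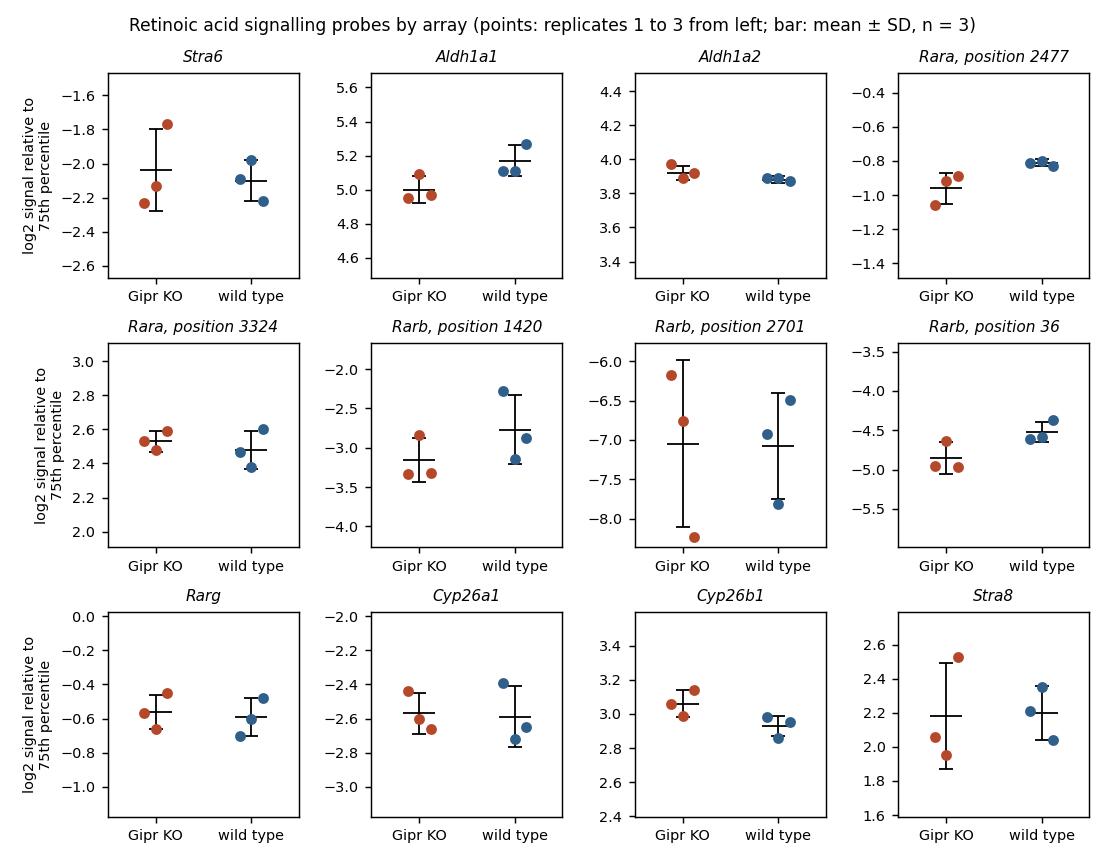
Log2 signal relative to the array's 75th percentile for the 12 probes, with knockout arrays left and wild-type arrays right in each panel and replicates 1 to 3 from left to right. Bars give the mean and SD of 3 arrays, and the panels of Rarb span a wider range than the others. Knockout replicate 3 stands highest for Stra8 (2.53) and Stra6 (-1.77).

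Uptake was represented by Stra6, the membrane receptor for the retinol carrier RBP4. Its probe (chr9:58001701-58001760, mm9, plus strand, from position 2974 of NM_001162476) read -2.23, -2.13 and -1.77 in knockout replicates 1 to 3, against -2.09, -1.98 and -2.22 in wild-type replicates 1 to 3. Knockout replicate 3 was the highest of the 6 arrays, and the groups overlapped. The difference was 0.05 ± 0.14 (log2, moderated SE; limma adjusted p = 0.917), with a 95% interval from 0.83-fold to 1.3-fold.

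Synthesis of retinoic acid showed its larger difference at Aldh1a1, the retinal dehydrogenase of Sertoli cells that is also found in Leydig cells. Its probe (chr19:20717764-20717823, mm9, plus strand) read 4.95, 5.09 and 4.97 in the knockout arrays, against 5.11, 5.11 and 5.27 in the wild-type arrays. All 3 knockout arrays lay below the lowest wild-type array, by a gap of 0.02 between the nearest pair. The difference was -0.16 ± 0.08 (log2, SE; limma adjusted p = 0.654), with a 95% interval from 0.79-fold to 1.02-fold. Aldh1a7, a close relative of Aldh1a1 that can share probe signal, read -0.09 ± 0.12 by its own probe.

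Markers of both cell types that hold Aldh1a1 were read beside it, and none of them passed over all probes. The summed level of 8 tested Leydig markers of 9 was 48.3 to 54.7 in knockout arrays, against 56.5 to 60.5 in wild-type arrays (multiples of the 75th percentile), with 7 of 8 lower and a median difference of -0.35. Knockout replicate 3 stood lowest: the median deviation of these markers was -0.03, 0.07 and -0.63 in knockout replicates 1 to 3, against 0.10, 0.35 and 0.13 in wild-type replicates 1 to 3. The summed level of the 14 Sertoli markers was 410 to 432 in knockout arrays, against 390 to 400 in wild-type arrays, with 11 of 14 higher and a median of 0.12. Bright probes weigh most in this sum, among them Rhox8, at 7.02, 6.90 and 7.02 in the knockout, against 6.66, 6.76 and 6.81 in the wild type. The arrays of the genotypes did not overlap for 3 of the 14, all higher, against 7.84% of all tested probes. No tested marker of either list was at 0. Their part in the Aldh1a1 values was not tested, and in whole testis fewer cells of a type and less RNA per cell cannot be told apart.

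Aldh1a2, the retinal dehydrogenase of germ cells in the adult testis, was the steadiest of the 9 genes. Its probe (chr9:71143931-71143990, mm9, plus strand) read 3.97, 3.89 and 3.92 in the knockout arrays, against 3.89, 3.89 and 3.87 in the wild-type arrays. The 6 values span 0.10, a narrower range than that of all but 3.37% of tested probes. The difference was 0.04 ± 0.06 (log2, SE; limma adjusted p = 0.843), and its 95% interval from 0.94-fold to 1.13-fold is the narrowest among the 11 probes.

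Among the receptors, Rara, which acts in Sertoli cells and germ cells, gave different values by its 2 probes. The probe from position 2477 of NM_001177302 (chr11:98835350-98835409, mm9, plus strand) read -1.06, -0.92 and -0.89 in the knockout arrays, against -0.81, -0.80 and -0.83 in the wild-type arrays. Every knockout array lay below every wild-type array, with a difference of -0.14 ± 0.07 (log2, SE; limma adjusted p = 0.654). The probe from position 3324 (chr11:98836197-98836256) read 2.53, 2.48 and 2.59 in the knockout arrays, against 2.47, 2.38 and 2.60 in the wild-type arrays, and the groups overlapped. Its difference was 0.05 ± 0.08 (limma adjusted p = 0.855).

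Both Rara probes are placed on the same transcript in the files, so the stretch each one reads is shown. The last 30 bases of the first probe and bases 25 to 54 of the second are given in lower case, with the polyadenylation hexamer AATAAA in capitals where it occurs.
Rara position 2477: atattaattctcgttggttttgtttttatt
Rara position 3324: tactggagaaagAATAAAgttctatttatt
AATAAA was in 4 of the 12 probes (Stra6, Rarg, this Rara probe and 1 of Rarb), against 10.1% of all non-control probes. The first probe minus the second, on the log2 scale, was -3.59, -3.39 and -3.48 in the knockout arrays, against -3.27, -3.18 and -3.43 in the wild-type arrays. The offset differed by -0.20 between genotypes, and an exact two-sided permutation test over the 20 splits of the arrays gave p = 0.2, where 0.1 is the smallest possible. The offsets of the genotypes overlapped, and this test cannot reach 0.05 with 3 arrays against 3.

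Rarb, a receptor that is itself induced by retinoic acid, had the largest differences and the dimmest probes. The probe from position 1420 of NM_011243 (chr14:17264648-17264707, mm9, minus strand) read -3.33, -2.84 and -3.32 in the knockout arrays, against -2.28, -3.14 and -2.88 in the wild-type arrays. Wild-type replicate 1 stood highest and the groups overlapped. The difference was -0.40 ± 0.25 (log2, SE; limma adjusted p = 0.696), with a 95% interval from 0.50-fold to 1.15-fold. Without wild-type replicate 1 it was -0.15.

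The second Rarb probe reads the start of an mRNA described in the files as the beta 1 isoform, from position 36 of X56569 (chr14:17651424-17651483, mm9, minus strand). It read -4.96, -4.63 and -4.97 in the knockout arrays, against -4.61, -4.58 and -4.37 in the wild-type arrays. The groups did not overlap, with 0.012 between the nearest pair, and its difference of -0.33 ± 0.12 (log2, SE) had an unadjusted p of 0.0327 and a limma adjusted p of 0.64. Its processed signal was 24.4 to 29.1 in the knockout arrays, against 30.2 to 37.2 in the wild-type arrays. With normexp background correction the difference was -0.089 and the groups overlapped. The third probe, from position 2701 of NM_011243 (chr14:17263367-17263426), was well above background in 1 knockout array of 3, against 0 wild-type arrays of 3, and was not tested. Its signals were 2.56 to 10.9 in knockout arrays, against 3.31 to 8.60 in wild-type arrays.

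The 3 Rarb probes read separate stretches, shown as 30 bases each, with AATAAA in capitals.
Rarb position 1420: agttcaagtgggaatatagcagagcacagt
Rarb position 2701: ttccatggagtctcctggcaaagAATAAAt
Rarb position 36: ttctgtgtgattctggacctgtagtaatgt
The offset within each array from the probe at position 1420 to that at position 36 was 1.63, 1.79 and 1.65 in the knockout, against 2.34, 1.44 and 1.49 in the wild type, and overlapped between genotypes (exact two-sided permutation p = 1). The probe from position 1420 was set beside the genes with the most similar values. By the root mean square difference between deviations from the mean over the 6 arrays, the closest gene symbol was Igsf9b, an immunoglobulin superfamily gene (0.053). Next were Ctss, a lysosomal protease of antigen-presenting cells (0.078), and Pik3r5, a PI3-kinase subunit of leukocytes (0.088). With so many tested probes and 6 values each, close matches can be found for any probe, so these symbols point to no cell type.

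Macrophage markers followed the Rarb probe on some arrays and not on others. Their median deviation was 0.03, -0.01 and -0.30 in knockout replicates 1 to 3, against 0.20, -0.05 and 0.09 in wild-type replicates 1 to 3, while the Rarb probe deviated by -0.36, 0.12 and -0.36 in the knockout and 0.69, -0.18 and 0.08 in the wild type. Both were highest in wild-type replicate 1 and low in knockout replicate 3, but in knockout replicate 1 the Rarb probe was low and the markers were not. Adgre1, a macrophage surface receptor named after its values were seen, read -1.39, -1.55 and -1.79 in the knockout, against -0.33, -1.42 and -1.36 in the wild type. Of the 5 tested markers, 3 were highest in wild-type replicate 1, 1 in wild-type replicate 3 (Mrc1) and 1 in knockout replicate 1 (Cd68). Mrc1 read 0.96, 0.88 and 0.84 in the knockout, against 0.82, 0.78 and 0.98 in the wild type. The summed level of 5 tested markers of 6 was 5.62 to 6.87 in knockout arrays, against 6.45 to 7.57 in wild-type arrays, with overlap, and Cd163 did not meet the filter. Their part in the Rarb values was not tested.

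Rarg, the receptor of undifferentiated and early differentiating spermatogonia, read -0.57, -0.66 and -0.45 in the knockout arrays, against -0.70, -0.60 and -0.48 in the wild-type arrays (chr15:102065371-102065430, mm9, minus strand). The groups overlapped almost wholly. The difference was 0.04 ± 0.09 (log2, SE; limma adjusted p = 0.916), with a 95% interval from 0.88-fold to 1.19-fold.

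**Figure D2:**
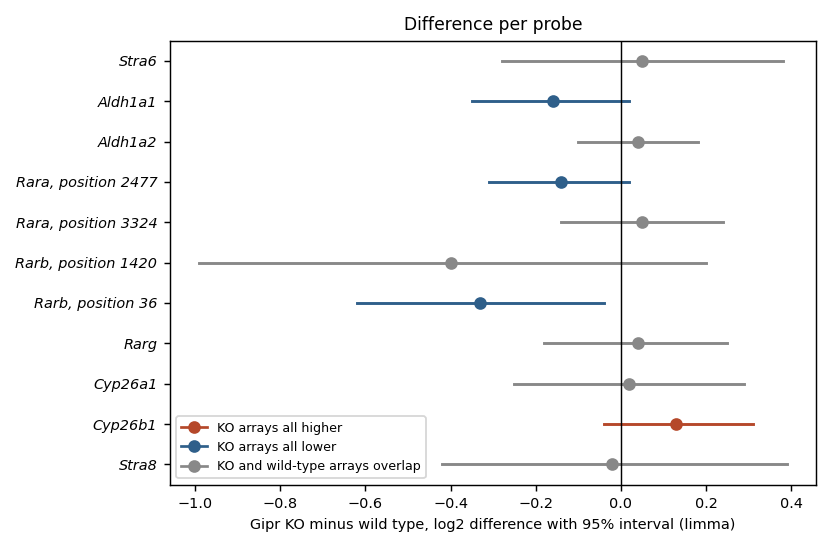
Knockout minus wild type for the 11 tested probes as a log2 difference, with the 95% interval from limma (n = 3 arrays per genotype). Colours mark probes whose knockout arrays all lie above (Cyp26b1) or all below (Aldh1a1, Rara from position 2477, Rarb from position 36) the wild-type arrays, and grey marks overlap. The interval of the Rarb probe from position 36, -0.62 to -0.04, is the single one that leaves out 0, before adjustment.

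Breakdown was read by both CYP26 genes. Cyp26b1, the retinoic acid hydroxylase of peritubular myoid cells, read 3.06, 2.99 and 3.14 in the knockout arrays, against 2.98, 2.86 and 2.95 in the wild-type arrays (chr6:84521952-84522011, mm9, minus strand). Every knockout array lay above every wild-type array, by 0.007 between the nearest pair, and quantile normalization or normexp ended that separation. The difference was 0.13 ± 0.07 (log2, SE; limma adjusted p = 0.673), with a 95% interval from 0.97-fold to 1.24-fold. Of 6 peritubular myoid markers 5 were higher, with a median difference of 0.08 and a summed level of 58.1 to 68.4 in knockout arrays, against 64.1 to 68.5 in wild-type arrays. Actg2, by far the brightest in that sum, was the 1 lower marker, at -0.16 ± 0.12 (log2, SE). Actg2 was highest in knockout replicate 2 (5.75), where Acta2 was lowest (2.95). The sum thus gives mostly the values of Actg2 and not those of the other 5 markers. Their part in the Cyp26b1 values was not tested.

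Cyp26a1, which retinoic acid induces in many cells, read -2.44, -2.60 and -2.66 in the knockout arrays, against -2.39, -2.72 and -2.65 in the wild-type arrays (chr19:37775566-37775625, mm9, plus strand). Replicate 1 was the highest of each group. The difference was 0.02 ± 0.11 (log2, SE; limma adjusted p = 0.964), with a 95% interval from 0.84-fold to 1.22-fold. Of the 2 genes whose promoter windows hold the direct repeat printed above, Cyp26a1 thus had a difference near 0. Rarb was below 0 by both tested probes, none of them called. The probe from position 1420 was at -0.15 without wild-type replicate 1, and that from position 36 at -0.089 with normexp. The probe from position 36 reads the start of the beta 1 mRNA, which was not placed relative to the printed window.

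Over the 11 tested probes, the arrays of the genotypes did not overlap for 4, with 3 lower (Aldh1a1, 1 Rara probe, 1 Rarb probe) and 1 higher (Cyp26b1) in the knockout. Of all tested probes 13.4% did not overlap, 5.54% lower and 7.84% higher. For arrays that do not overlap, an exact two-sided permutation test can only give p = 0.1, the smallest that 3 arrays against 3 allow. This p thus restates how the 4 were picked and adds nothing to it. In none of the 4 was the gap between the nearest arrays above 0.057.

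Stra8, the retinoic acid target needed for entry into meiosis, did not separate the genotypes, and its SD of 0.31 among knockout arrays was the widest of the 11 probes. Its probe (chr6:34889237-34889296, mm9, plus strand, from position 1349 of NM_009292) read 2.06, 1.95 and 2.53 in the knockout arrays, against 2.21, 2.35 and 2.04 in the wild-type arrays. The knockout group held both the highest array, replicate 3, and the lowest, replicate 2. The difference was -0.02 ± 0.17 (log2, SE; limma adjusted p = 0.978), with a 95% interval from 0.75-fold to 1.31-fold. Its range of 0.58 over the 6 arrays exceeded that of 78.5% of tested probes.

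Stra6 took similar values relative to its own mean: Stra8 deviated by -0.13, -0.24 and 0.34 in the knockout and 0.02, 0.16 and -0.15 in the wild type, and Stra6 by -0.16, -0.06 and 0.30 in the knockout and -0.02, 0.09 and -0.15 in the wild type. Both were highest in knockout replicate 3 and next highest in wild-type replicate 2. Genes of germ cell differentiation and meiotic entry were also high on knockout replicate 3, where 8 of 13 tested genes had their highest value, against 21.6% of all tested probes. Other lists were high on that array too, with the highest value there for 10 of 14 Sertoli, 7 of 12 spermatocyte and 5 of 10 spermatogonia markers, and Leydig markers were low there, as given above. The median deviation of the meiotic entry genes was -0.05, -0.05 and 0.16 in the knockout, against 0.01, 0.00 and -0.04 in the wild type. The closest gene symbol to Stra8 by the root mean square difference over 6 arrays was Radx, a single-stranded DNA binding protein (0.027). Next were Xlr5c, an X-linked lymphocyte-regulated gene (0.038), and Cd274, which encodes PD-L1 (0.041). These too were picked from all tested probes over 6 values, where close matches can be found for any probe. Without knockout replicate 3 the Stra8 difference was -0.19, and without knockout replicate 2 it was 0.096.

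**Figure D3:**
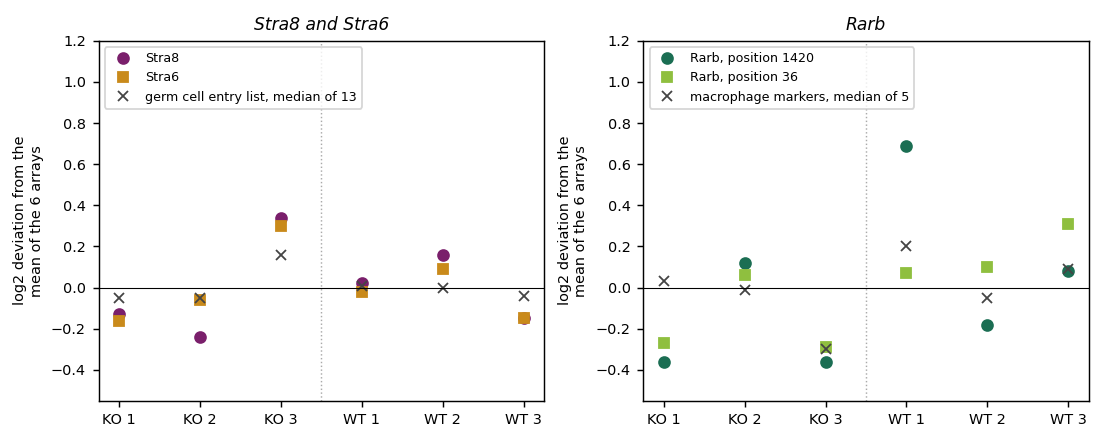
Log2 deviation from the mean of the 6 arrays, with the 3 knockout arrays left and the 3 wild-type arrays right in each panel. The left panel shows Stra8, Stra6 and the median of 13 genes of germ cell entry, all highest on knockout replicate 3, and the right panel shows both tested Rarb probes and the median of 5 macrophage markers, where wild-type replicate 1 is the highest for the Rarb probe from position 1420 (0.69) and for the markers (0.20).

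In the rest of the retinoid pathway no gene passed either. Of 86 further genes in 5 lists, 74 were tested, 0 passed over all probes in limma and 1 had an unadjusted p under 0.05. Among genes of retinoid delivery and storage, 7 of 10 tested were higher and 3 lower in the knockout, with a median difference of 0.07, against 0.008 for all tested probes. Rbp7, a cellular retinol-binding protein, was at 0.20 ± 0.09 (log2, SE; limma adjusted p = 0.652). It was the 1 gene of the 10 that did not overlap between genotypes, against 13.4% of all tested probes. Fabp5, which carries retinoic acid and fatty acids, was at 0.17 ± 0.09, and the retinoic acid carrier Crabp2 at 0.10 ± 0.07.

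For retinol and retinal metabolism, 11 of 23 tested genes were higher and 12 lower. Rdh5, a retinol dehydrogenase, had the single unadjusted p under 0.05 (0.0432), at 0.23 ± 0.09 (limma adjusted p = 0.643). Adh5 was at 0.22 ± 0.11 and the retinol dehydrogenase Rdh14 at 0.15 ± 0.08. Of the 23 genes, 1 higher (Rdh14) and 1 lower did not overlap between genotypes, against 13.4% of all tested probes. Rdh10, the main retinol dehydrogenase of the embryo, named here for its role after its value was seen, was at 0.11 ± 0.15, and Dhrs3, which returns retinal to retinol, likewise at -0.08 ± 0.10.

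Receptor partners and coregulators were higher for 12 of 19 and lower for 7, with a median of 0.02. Of the 19, 1 did not overlap between genotypes, with higher knockout arrays. The coactivator Ep300 was at 0.22 ± 0.10 and the RAR partner Rxra at -0.16 ± 0.08 (log2, SE; limma adjusted p of 0.654 and 0.67). The other RAR partners, named for their role after their values were seen, were Rxrb at 0.11 ± 0.07 and Rxrg at -0.09 ± 0.10.

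Germ cell differentiation and meiotic entry genes were higher for 8 of 13 and lower for 5, with a median of 0.01. Dmrt1, which holds back meiosis in spermatogonia, was at 0.14 ± 0.08 and the stem cell receptor Gfra1 at -0.27 ± 0.16. The meiotic cohesin Rec8, a further retinoic acid target, was at -0.13 ± 0.09 (log2, SE; limma adjusted p from 0.68 to 0.703 for the 3). Dmrt1 was the 1 gene of the 13 with no overlap between genotypes, against 13.4% of all tested probes. Genes that respond to retinoic acid in other tissues were higher for 3 of 9 and lower for 6, with a median of -0.09. Efnb1, an ephrin ligand, was at -0.31 ± 0.13 (limma adjusted p = 0.649), the transglutaminase Tgm2 at -0.09 ± 0.07, and the transcription factor Bhlhe40 at -0.15 ± 0.14. Knockout arrays lay below wild-type arrays for 2 of the 9, Efnb1 and Tgm2, against 5.54% of all tested probes.

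**Figure D4:**
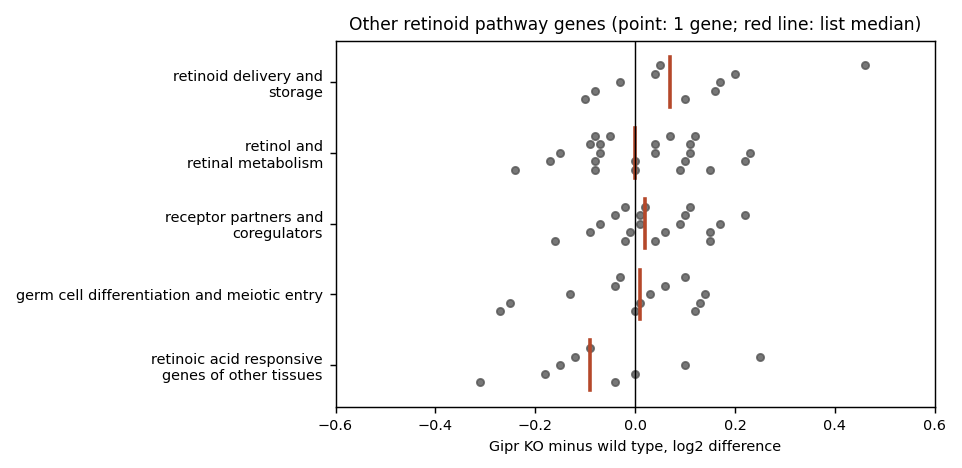
Knockout minus wild type as a log2 difference for the tested genes of 5 further retinoid lists, 1 point per gene by its brightest tested probe, with the list median as a red line. The medians run from -0.09 to 0.07 and 0 of 74 genes passed over all probes.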

How the data were processed

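Whole-testis RNA was labelled with Cy3 and hybridised to 1-colour Agilent arrays, 1 per sample. Per the file headers, the authors read the images with Feature Extraction 10.7.3.1, and the deposited processed signal is a background-corrected, detrended spot intensity on a linear scale. A deposited value list of the same arrays, each column with a median of 200, holds the processed signal times 1 factor per array, is neither centred nor a ratio, and was used as an alternative.

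From these intensities, log2 was taken, outlier spots (117 to 149 per array) were left out, repeated spots were averaged by probe, and each array was scaled to its own 75th percentile; 13 probes without a spot on some array were dropped. Tested probes had to be well above background in all 3 arrays of either genotype (38893 of 55681). The fit of knockout against wild type used lmFit and eBayes of limma 3.58.1 under R 4.3.3 on 6 arrays without covariates, two-sided, with Benjamini-Hochberg adjustment over all tested probes and a threshold of 0.05. The step was tested on simulated data.

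Named are all probes of the 9 genes, and from each list any called gene and otherwise the 3 of lowest p, of which 1 gene is not reported here. Other genes were found by current symbol through the RefSeq table of GRCm38.p6 (an accession matched for 26762 probes, a symbol for 3819, an older symbol for 639; 24461 kept the file's name). The same named-gene rule took the 3 closest symbols for Stra8 and for the widest-ranging gene, Rarb. Genes and lists were chosen with earlier results of these data known. Probe coordinates are those of the files, on mm9, with no exon or UTR boundaries used here. Marker sums add the normalised linear signal of each gene's brightest tested probe. The number of arrays, 3 per genotype, limits the precision. Insl3 and Meiosin were not analysed here.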

Additional observations from a re-analysis of the deposited data

How the results depend on the processing

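In all 16 alternative fits 0 probes of the 9 genes passed, with the lowest adjusted p at 0.226 in limma. Over all probes, the count of calls, 18 in the chosen setting, was 11 with quantile normalization, 30 with normexp, 7 without a filter on dim probes, 35 with eBayes trend and robust and 29 with array weights. It was 5, 5 and 10 without knockout replicate 1, 2 and 3, and 11, 7 and 5 without wild-type replicate 1, 2 and 3, where fewer samples remain. With the replicate number as a block it was 6. The same-numbered arrays correlated at 0.058, -0.024 and -0.003 in their deviations across probes. Such values show no sign of pairing by number and cannot exclude it. Of the 4 probes whose arrays did not overlap, 2 remained with normexp (Aldh1a1 and Rara), and the cause was not tested. The count of these probes with an unadjusted p under 0.05, 1 in limma, ran from 0 (replicate block, among others) to 4 (array weights).

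Of the 11 tested probes 7 kept their sign in every alternative that tested them, though the Rara probe from position 3324 fell to 0.0 without wild-type replicate 2. The sign turned in 12 of 174 results: Stra6 at -0.083 with array weights and between -0.084 and 0.15 when 1 array was left out, Cyp26a1 at -0.003 with normexp and between -0.048 and 0.12, Rarg between -0.019 and 0.094, and Stra8 between -0.19 and 0.096 when 1 array was left out. The Rarb probe from position 2701 was not well above background on most arrays, which limits what it can show.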

Other observations

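The highest value of the 11 tested probes fell on knockout replicate 1, 2 and 3 for 1, 0 and 4 probes and on wild-type replicate 1, 2 and 3 for 2, 1 and 3. The lowest fell on 4, 1 and 1 in the same order of knockout arrays and on 1, 3 and 1 of the wild-type arrays.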
